A study of Rattus norvegicus with 44 samples.

Results

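Mitosis and cytokinesis genes were followed in H4-II-E-C3 cells, a line derived from a rat hepatoma, after 24 h with nickel, chromium or cadmium. The set was fixed by name as 44 genes of the cyclin and kinase machinery, the kinetochore, the spindle, chromosome separation and cell division. On the array, 37 of the 44 had a probe set that named them and no other gene, 54 probe sets in all out of 31099. Another 2 probe sets were shared with a second gene (Anln with Anlnl1, and Ckap2 with a Ckap2 pseudogene) and were not used for a member. Nek2, Ndc80, Ckap2, Tpx2, Cdc25c, Anln and Kif4a thus had no value of their own. A gene with several probe sets was represented by the one with the highest mean over all arrays. The leading probe sets of 35 members were among the 15521 tested, and those of Ccnb2 and Cenpe were too dim to be tested with them.

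RNA was measured on 44 Affymetrix arrays, and values are log2 intensities after RMA (robust multi-array averaging), so that a difference of 1 is a doubling. Near-confluent cells received NiCl2 at 40, 140 or 400 µM, Na2Cr2O7 at 0.275, 1 or 10 µM, or CdCl2 at 0.2, 0.55 or 1.2 µM. The flasks were first washed to remove serum, and the medium of the exposure held none. Each of 4 biological replicates held 1 array of each exposure and 2 unexposed control arrays, which gave 36 exposed and 8 control arrays. The concentrations had been chosen by the authors from viability assays, in which the middle and high ones lowered viability. Arrays were given their conditions by listing the sample titles in series order with the 4 titles of repeated arrays moved to the end. The titles as deposited place 22 of the 44 arrays differently, and under those titles no member and no gene of the other lists was called in any exposure. The share of all probe sets called under those titles is not given. With the order used here, condition means differed from those tabulated by the study by at most 7.5e-06. With the titles as deposited they differed by up to 4.32. For replicates 1 and 2 of nickel and chromium, both orders name the same arrays.

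A cell that enters mitosis activates cyclin-dependent kinase 1 (Cdk1) with cyclin A or B, then condenses its chromosomes and attaches them to spindle microtubules through kinetochores. A checkpoint holds the cell until every chromosome is attached, after which the anaphase promoting complex destroys cyclin B and securin, the sister chromatids part and the cell is cleaved. The genes for these proteins are transcribed mainly in late S phase and G2, so the level of their RNA in a culture is commonly read as a sign of how many cells are in or near division. Many are held silent outside that window through the DREAM complex and are switched on by MYBL2 and FOXM1, and a promoter element called the cell cycle genes homology region (CHR), often near CCAAT boxes, takes part in this control.

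The promoters of the members shared these letters more often than other promoters did. A window from 250 bases before to 50 bases after the start of each gene was searched on both strands, for the CHR as TTTGAA or TTTAAA and for the CCAAT box as CCAAT. Of these, TTTAAA reads the same on both strands, and a CHR match next to a CCAAT match may share its end base. A window was listed for 38 of the 44 members (RefSeq, GRCr8), and a gene with several windows counted once if any of them matched. A CHR match was found in 35 of the 38 (92.1%), against 29.6% of 27457 genes of the promoter table and 19.3% of the 7607 that also had a tested probe set. A CCAAT match was found in 30 of the 38 (78.9%), against 39.6% and 39.9%. Both stood in 27 members (71.1%), against 12.8% of all genes. In the 9 kinetochore and spindle checkpoint members the CCAAT share was 44.4%, near that of all genes. Cdc25b, Cdca3 and Nek2 had no CHR match in the window. These shares are a description, with no test, and a match says nothing of whether a factor was bound. The 120 bases before the start are shown for 7 members, 5′ to 3′ on the strand of the gene, because they show where the matches lie. The arrangement differed between members. Capitals mark each CHR or CCAAT match, read on either strand (ATTGG is CCAAT and TTCAAA is TTTGAA on the other strand).
Cdk1, chr20:19265173-19265292, plus strand: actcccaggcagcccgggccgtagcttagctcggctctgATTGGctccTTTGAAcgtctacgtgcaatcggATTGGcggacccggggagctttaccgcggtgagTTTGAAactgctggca
Ccnb1, chr2:33655226-33655345, minus strand: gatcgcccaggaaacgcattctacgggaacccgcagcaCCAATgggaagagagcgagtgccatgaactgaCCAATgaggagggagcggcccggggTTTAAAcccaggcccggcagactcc
Cdc20, chr5:137255800-137255919, minus strand: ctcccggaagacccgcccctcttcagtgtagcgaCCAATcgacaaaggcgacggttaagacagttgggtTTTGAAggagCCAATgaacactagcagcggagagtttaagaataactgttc
Plk1, chr1:186147538-186147657, plus strand: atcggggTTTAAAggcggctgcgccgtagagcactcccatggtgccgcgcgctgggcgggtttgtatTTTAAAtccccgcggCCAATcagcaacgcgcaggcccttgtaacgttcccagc
Top2a, chr10:84473094-84473213, minus strand: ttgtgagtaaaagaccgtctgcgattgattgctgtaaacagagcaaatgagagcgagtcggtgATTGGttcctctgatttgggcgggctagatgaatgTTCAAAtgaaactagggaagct
Kif11, chr1:244536747-244536866, plus strand: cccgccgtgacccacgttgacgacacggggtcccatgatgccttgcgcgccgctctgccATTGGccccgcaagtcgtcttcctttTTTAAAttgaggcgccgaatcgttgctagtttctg
Cdca3, chr4:159321083-159321202, plus strand: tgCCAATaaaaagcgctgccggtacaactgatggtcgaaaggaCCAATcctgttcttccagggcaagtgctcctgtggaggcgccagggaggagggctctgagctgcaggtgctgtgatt
Counted from the start of the gene, the CHR match began at -25 in Ccnb1, -22 in Top2a and -35 in Kif11, with the nearest CCAAT match at -50, -57 and -61. Cdk1 had CHR matches at -72 and -16 and CCAAT matches at -81 and -49. In the stretch shown for Plk1 the order was reversed, with CHR matches at -113 and -53 and the CCAAT match at -38. A further CHR match of Plk1 began at 6, after the start and outside that stretch. Cdc20 had its CHR match at -51, between CCAAT matches at -86 and -41. Cdca3, shown as the exception, held only CCAAT matches, at -118 and -77.

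The cultures carried hepatocyte transcripts on every array. Of 8 hepatocyte markers with a probe set of their own, 6 passed the filter, with Alb (albumin) between 13.82 and 14.71 on the log2 scale over the 44 arrays, while Apoa1 and Apoh did not. Of 12 markers of fibroblasts, endothelium and leukocytes, only Cd14 passed the filter. Cd14 was higher at cadmium 1.2 µM by 1.15 and at chromium 10 µM by 0.43, and Serpina1 (alpha-1-antitrypsin) changed by -0.99 in nickel 400 µM, -1.59 in chromium 10 µM and -1.10 in cadmium 1.2 µM. Ttr (transthyretin) was also lower in all 3 (-1.62, -1.16 and -0.56), and Afp (alpha-fetoprotein) in nickel 400 µM (-1.75) and cadmium 1.2 µM (-0.38). Fgb (fibrinogen) was higher in chromium 10 µM (0.45) and cadmium 1.2 µM (0.43), and Ahsg (fetuin-A) was higher in nickel 400 µM (0.19) and lower in chromium 10 µM (-0.57). Alb was not called at these concentrations. The part of these changes in the results for the members was not tested. Arrays of a condition correlated with a lowest r of 0.938. The arrays of nickel 400 µM replicates 1 and 4 and of chromium 0.275 µM replicate 4 had the lowest median r with their own condition, 0.950, 0.951 and 0.951.

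At the high concentrations most members rose in chromium, while more fell than rose in both nickel and cadmium. Chromium at 10 µM raised 29 of the 35 tested members and lowered none, with a median change of 0.48. Nickel at 400 µM lowered 21 and raised 1 (Cenpf), with a median of -0.29. Cadmium lowered 10 at 0.2 µM, 11 at 0.55 µM and 9 at 1.2 µM, where it also raised 1 (Mad2l1). Its median change was -0.41 at the low, -0.27 at the middle and -0.18 at the high concentration. Over all 15521 probe sets the median change of each exposure lay between 0.00 and 0.04. Changes of the 35 tested members were small in size: none reached 1.8-fold with an FDR of 0.001 or less at any high concentration. The probe set shared by Ckap2 and a pseudogene was not counted as a member. It rose by 1.16 in chromium 10 µM (limma, adjusted p = 1.43e-06) and met both limits.

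A member was called where the limma fit of that metal, with the replicate as a block, gave an adjusted p under 0.05 over all probe sets tested. For chromium 10 µM, 23% of all probe sets were called higher and 19.5% lower. For nickel 400 µM these shares were 23.4% higher and 16.7% lower. For cadmium they were 0.161% higher and 0.316% lower at 0.2 µM, 8.38% and 2.3% at 0.55 µM, and 23.8% and 14% at 1.2 µM. By the stricter rule, 1.06% of probe sets were higher and 1.65% lower in chromium 10 µM, 1.46% and 0.805% in nickel 400 µM, and 1.11% and 0.412% in cadmium 1.2 µM. With the titles as deposited, none of the 35 members was called in any exposure, and the medians were 0.10 for chromium 10 µM, -0.23 for nickel 400 µM and -0.21, -0.26 and -0.02 for rising cadmium. In replicates 1 and 2 alone, where the order of the titles plays no part, chromium 10 µM raised 24 members (median 0.36) and nickel 400 µM lowered 14 and raised 1 (median -0.19). The median over all probe sets in that fit was 0.01 for both. The shares above belong to the fit of all 4 replicates. For both alternatives the share of all probe sets called is not given, so their counts lack a background. In cultures, fewer dividing cells and less of these RNAs per dividing cell cannot be told apart.

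No member was called at nickel 40 or 140 µM or at chromium 0.275 or 1 µM by limma. Nickel 40 µM and chromium 0.275 µM had 0% of all probe sets called in either direction. Nickel 140 µM had 2.53% higher and 0.754% lower, and chromium 1 µM had 0.0322% and 0.0193%. At an unadjusted p under 0.05, 3 members were lower in nickel 40 µM, 5 lower and 1 higher in nickel 140 µM, 1 higher in chromium 0.275 µM, and 21 higher and none lower in chromium 1 µM. All 35 estimates were above 0 in chromium 1 µM (median 0.19, 20 members above their controls in 4 of 4 replicates), although the lowest adjusted p was 0.235. No share of all probe sets is given at the unadjusted threshold or for 4 of 4 replicates, so these counts lack a background.

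**Figure D1:**
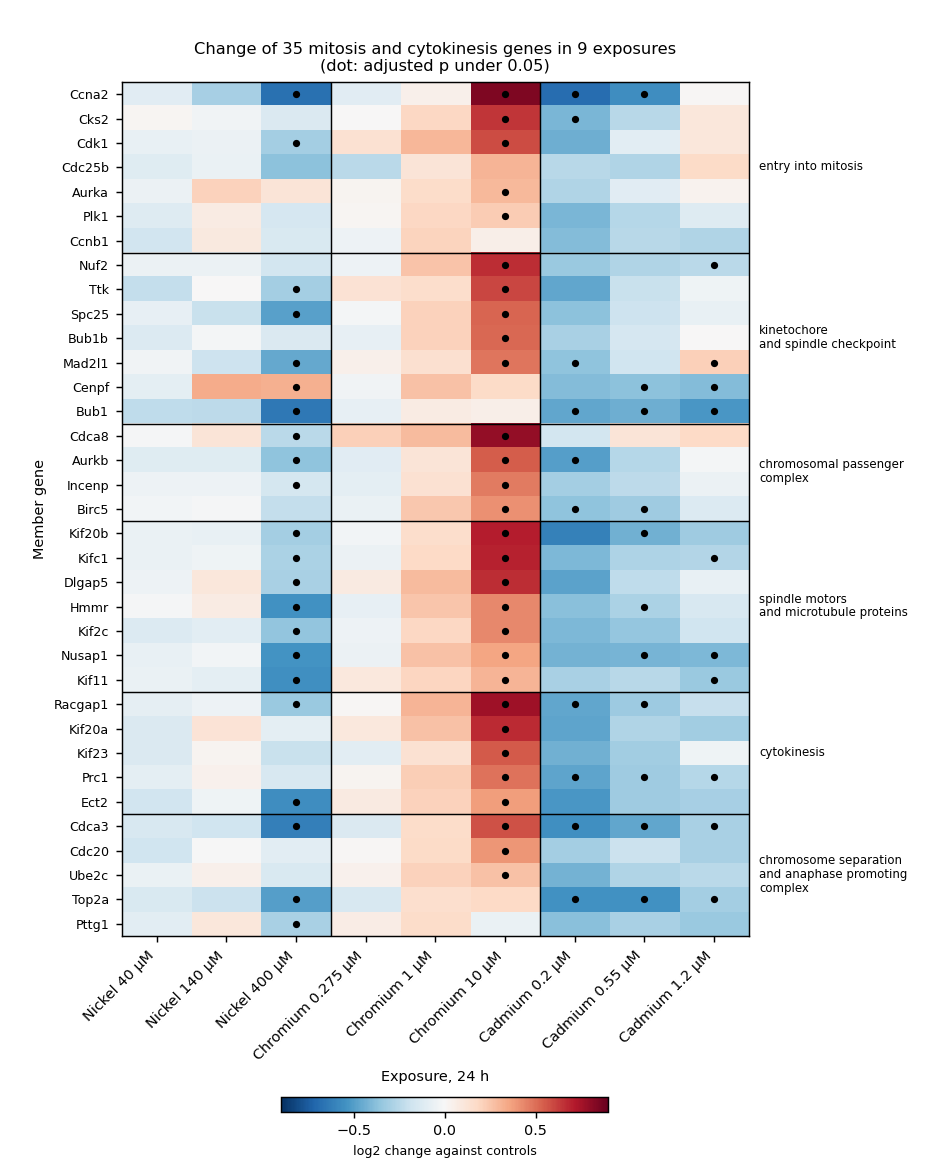
Log2 change of the 35 tested members (rows, grouped by role) against controls in the 9 exposures (columns), with a dot where the adjusted p was under 0.05. The chromium 10 µM column is red for all members except Pttg1, nickel 400 µM is blue for all except Cenpf and Aurka, and the cadmium columns are mostly blue and palest at 1.2 µM.

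The direction was shared by the 4 replicates in chromium 10 µM, nickel 400 µM and cadmium 0.2 µM, and less evenly in cadmium 0.55 and 1.2 µM. Relative to the controls of its own replicate, the median over the members was 0.39, 0.36, 0.48 and 0.66 on the chromium 10 µM arrays of replicates 1 to 4. On the nickel 400 µM arrays it was -0.18, -0.20, -0.45 and -0.28. On the cadmium 0.2 µM arrays it was -0.21, -0.30, -0.55 and -0.63. Every array of these exposures thus lay on the same side as its condition. Cadmium 0.55 µM gave -0.33, -0.39 and -0.41 on replicates 1, 3 and 4 but -0.04 on replicate 2, which is the repeated cadmium array. Cadmium 1.2 µM gave 0.02 on replicate 1 and -0.24, -0.30 and -0.23 on the others. Without that repeated array, 29 members were lower at cadmium 0.2 µM, 26 at 0.55 µM and 17 at 1.2 µM. Without replicate 3 the counts were 0, 1 and 2, and without replicate 4 they were 0, 5 and 3, so the number of cadmium calls rested on single replicates. Without replicate 1 they were 5, 5 and 12, and without replicate 2 they were 22, 22 and 11. Without the replicate block they were 0, 0 and 2. The shares of all probe sets called in these alternatives are not given, so the counts lack a background.

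**Figure D2:**
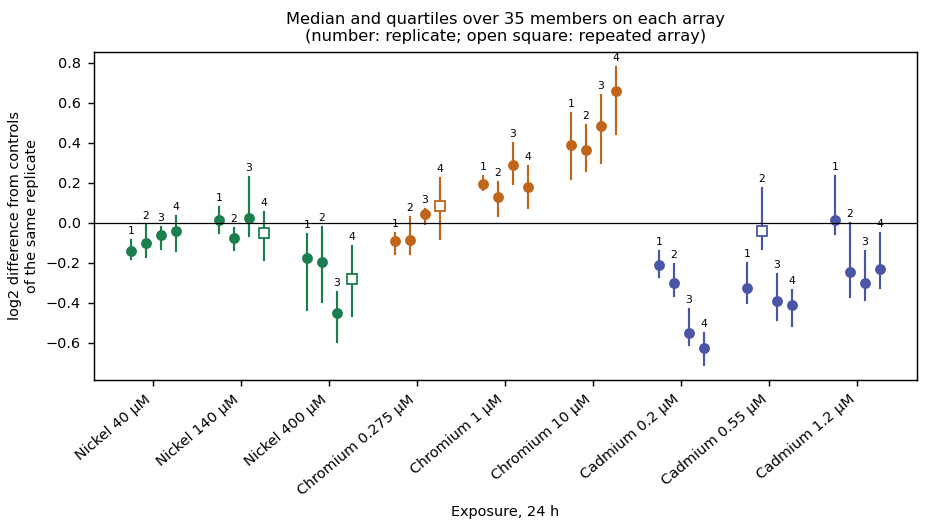
Median (symbol) and quartiles (line) over the 35 tested members of the log2 difference between each exposed array and the controls of its replicate, with the replicate number above and open squares for repeated arrays. The 4 chromium 10 µM arrays lie between 0.36 and 0.66, and the repeated cadmium 0.55 µM array of replicate 2 lies at -0.04, above the other 3 of its exposure.

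Among the genes for entry into mitosis, chromium raised 5 of 7, nickel lowered 2, and cadmium lowered 2 at 0.2 µM, 1 at 0.55 µM and none at 1.2 µM. Ccna2 encodes cyclin A2, which acts in S phase and at mitotic entry, and it had the largest change of all members in both chromium and nickel. Its 8 control arrays ran from 7.82 to 8.55 with a median of 8.28. The chromium 10 µM arrays of replicates 1 to 4 read 9.02, 8.73, 9.44 and 9.16, all above every control. The nickel 400 µM arrays read 7.84, 7.99, 7.36 and 7.12, and 2 of them lay within the control range. The change was 0.84 ± 0.14 (SE, adjusted p = 3.95e-04) in chromium and -0.67 ± 0.11 (adjusted p = 3.44e-04) in nickel. In cadmium Ccna2 read 7.84, 7.81, 7.52 and 7.07 at 0.2 µM (-0.68 ± 0.08, adjusted p = 0.00603) but 8.57, 8.39, 8.09 and 7.96 at 1.2 µM (0.01 ± 0.08). Cyclin A2 was thus low at the lower cadmium concentrations and spread around the control range at the highest.

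Cdk1, the kinase that cyclins A and B activate, lay between 9.02 and 9.40 in the controls (median 9.23). It read 9.72, 9.76, 9.90 and 9.85 in chromium 10 µM, above all controls (0.59 ± 0.12, adjusted p = 0.00122). In nickel 400 µM it read 9.22, 9.01, 8.59 and 8.83, overlapping the controls (-0.31 ± 0.10, adjusted p = 0.0281). The cadmium 1.2 µM arrays were spread from 9.11 to 9.62 around the controls (0.10 ± 0.13). Ccnb1, cyclin B1, did not follow Cdk1 and cyclin A2 in chromium. Its controls ran from 8.48 to 8.67 (median 8.52), and the chromium 10 µM arrays read 8.49, 8.72, 8.55 and 8.64 (0.06 ± 0.08, adjusted p = 0.621). The nickel 400 µM arrays read 8.51, 8.51, 8.25 and 8.36 (-0.14 ± 0.09, adjusted p = 0.249). The cadmium 0.2 µM arrays read 8.36, 8.30, 8.04 and 7.93, all below the lowest control, although the change of -0.39 ± 0.10 was not called (adjusted p = 0.131). The related cyclin Ccnb2, too dim to be tested with the rest, changed by 0.38 ± 0.08 in chromium 10 µM and by -0.32 ± 0.09 in cadmium 1.2 µM in the fit over all probe sets, and was called in both.

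Plk1 (polo-like kinase 1) and Aurka (aurora kinase A), kinases of centrosome maturation and mitotic entry, rose little. Plk1 controls ran from 7.78 to 8.24 (median 7.93), and chromium 10 µM arrays read 8.003, 8.09, 8.34 and 8.35, overlapping them (0.23 ± 0.07, adjusted p = 0.0146). In nickel 400 µM Plk1 read 7.93, 7.90, 7.81 and 7.64 (-0.15 ± 0.12, adjusted p = 0.319), within or just below the control range. Aurka changed by 0.29 in chromium 10 µM and was called there alone. Cks2, a small subunit of the cyclin-dependent kinase complex, rose by 0.64 in chromium 10 µM and fell by 0.41 in cadmium 0.2 µM. Cdc25b, a phosphatase that activates Cdk1, was called in no exposure against controls, with 0.31 in chromium 10 µM and -0.37 in nickel 400 µM.

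In the kinetochore and spindle checkpoint group, chromium 10 µM raised 5 of 7 tested members, and nickel 400 µM lowered 4 and raised 1. Cadmium lowered 2 at 0.2 µM, 2 at 0.55 µM and 3 at 1.2 µM, where Mad2l1 was higher. Bub1 and Bub1b encode related checkpoint kinases, and their values separated in chromium. Bub1 controls ran from 8.88 to 9.31 (median 9.16). The nickel 400 µM arrays read 8.61, 8.59, 8.38 and 8.31 and the cadmium 1.2 µM arrays 8.84, 8.60, 8.47 and 8.47, and none of the 8 reached the lowest control. The change was -0.65 ± 0.07 in nickel (adjusted p = 3.05e-05) and -0.52 ± 0.08 in cadmium 1.2 µM (adjusted p = 2.05e-04). Chromium 10 µM read 9.28, 9.14, 9.12 and 9.16, inside the control range (0.05 ± 0.07, adjusted p = 0.569). Bub1 was lower at all 3 cadmium concentrations, as were Cdca3, Prc1 and Top2a.

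Bub1b controls spread from 6.45 to 7.11 (median 6.80), and the chromium 10 µM arrays read 7.32, 7.31, 7.31 and 7.31, above all of them (0.52 ± 0.08, adjusted p = 2.66e-04). Nickel 400 µM read 6.89, 6.84, 6.36 and 6.56 (-0.13 ± 0.08), and cadmium 1.2 µM read 7.16, 6.68, 6.66 and 6.67 (0.00 ± 0.11), and neither was called. Mad2l1, the checkpoint protein that inhibits Cdc20, was the member that cadmium 1.2 µM raised. Its controls ran from 7.58 to 8.06 (median 7.88), and cadmium 1.2 µM read 8.30, 8.15, 7.93 and 7.84, with 2 arrays above the controls (0.21 ± 0.07, adjusted p = 0.0314). That call was lost without replicate 1 (0.18), without replicate 3 (0.24), with arrays centred on their median (0.14), without the replicate block, with all probe sets tested, in 1 fit over all exposures and with the titles as deposited (0.02). It was kept under the other alternatives, and both further tested probe sets of Mad2l1 were called higher there (0.25, adjusted p = 0.0281, and 0.43, adjusted p = 0.00132), as was their mean with the leading one (0.30, adjusted p = 0.00292). In nickel 400 µM Mad2l1 read 7.55, 7.49, 7.32 and 7.16, all below the controls (-0.46 ± 0.07, adjusted p = 2.13e-04), and in chromium 10 µM 8.45, 8.11, 8.47 and 8.26, all above them (0.48 ± 0.09, adjusted p = 6.33e-04).

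Cenpf, a large kinetochore and nuclear matrix protein of G2 cells, was the member called higher in nickel, where Aurka alone of the others had an estimate above 0 (0.12, not called). Its controls ran from 7.51 to 8.13 (median 7.88), and the nickel 400 µM arrays read 8.61, 8.41, 7.86 and 7.87, of which 2 exceeded every control (0.32 ± 0.09, adjusted p = 0.0118). The call was lost without replicate 1 (0.25) or replicate 2 (0.26), the replicates of those 2 arrays, without the replicate block, and with the titles as deposited (0.14). Chromium 10 µM read 8.16, 8.27, 7.91 and 7.82 (0.17 ± 0.08, adjusted p = 0.0896), and cadmium 1.2 µM read 7.99, 7.55, 7.28 and 7.07 (-0.39 ± 0.10, adjusted p = 0.00717). Among the other kinetochore genes, Nuf2 and Spc25 of the microtubule-binding NDC80 complex rose by 0.67 and 0.52 in chromium 10 µM, and Spc25 fell by 0.49 in nickel 400 µM. Ttk, the kinase that starts the checkpoint, rose by 0.60 in chromium 10 µM and fell by 0.30 in nickel 400 µM. Cenpe, a kinetochore motor below the filter, changed by 0.41 in chromium 10 µM in the fit over all probe sets and was called there.

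**Figure D3:**
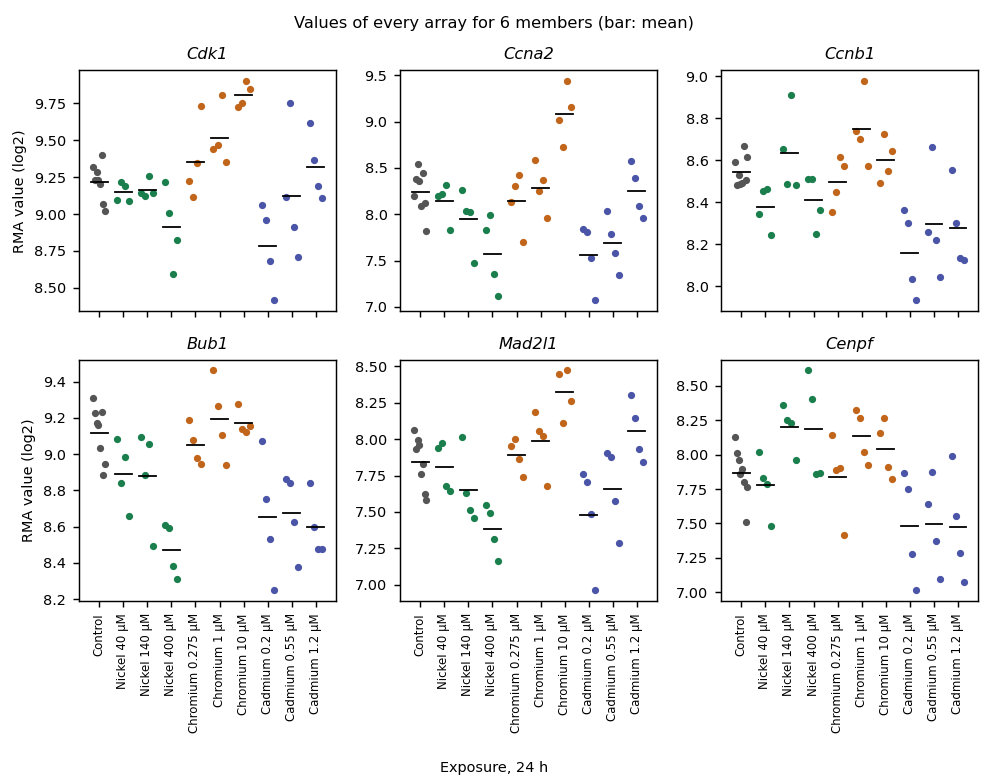
RMA values (log2) of every array for 6 members in the controls (8 arrays) and the 9 exposures (4 arrays each), with a bar at each mean; axes start above 0 and differ between genes. The 4 chromium 10 µM arrays lie above every control for Cdk1, Ccna2 and Mad2l1 but inside the control range for Bub1, and Cenpf has 2 nickel 400 µM arrays above its controls.

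All 4 subunits of the chromosomal passenger complex, which corrects faulty attachments and guides cytokinesis, rose in chromium 10 µM, and 3 of the 4 fell in nickel 400 µM. Cdca8 (borealin) had the larger rise among them. Its controls ran from 6.68 to 7.14 (median 6.92), and chromium 10 µM read 7.78, 7.51, 7.84 and 7.69, well clear of them (0.79 ± 0.08, adjusted p = 5.46e-06). Nickel 400 µM read 6.94, 6.496, 6.47 and 6.79 (-0.24 ± 0.08, adjusted p = 0.0260), and cadmium 1.2 µM read 7.30, 6.81, 7.18 and 7.08 (0.18 ± 0.13). Aurkb (aurora kinase B), the catalytic subunit, ran from 7.44 to 7.68 in the controls (median 7.62) and read 8.24, 8.03, 8.20 and 8.11 in chromium 10 µM, above all controls (0.54 ± 0.08, adjusted p = 1.69e-04). In nickel 400 µM Aurkb read 7.63, 7.19, 6.87 and 7.25, where replicate 1 stayed among the controls (-0.37 ± 0.13, adjusted p = 0.0356). In cadmium 1.2 µM it read 7.89, 7.54, 7.55 and 7.34 (-0.02 ± 0.09), on both sides of the controls.

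Birc5 (survivin) controls ran from 7.35 to 7.78 (median 7.47). Its nickel 400 µM arrays read 7.21, 7.33, 7.34 and 7.29, all below the controls by little, and the change of -0.22 ± 0.10 was not called (adjusted p = 0.107). Chromium 10 µM read 7.69, 7.75, 8.09 and 8.14 (0.41 ± 0.08, adjusted p = 9.14e-04), and the first 2 of these overlapped the controls. Cadmium 0.2 µM read 7.21, 7.03, 7.18 and 7.15, all below the controls (-0.37 ± 0.07, adjusted p = 0.0319), and 1.2 µM read 7.43, 7.22, 7.33 and 7.56 (-0.13 ± 0.07, adjusted p = 0.153). Incenp, the scaffold of the complex, rose by 0.47 in chromium 10 µM. Its call in nickel 400 µM rested on the leading probe set (-0.16), since its other tested probe set gave 0.16 there and was not called.

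All 7 tested spindle motors and microtubule proteins rose in chromium 10 µM and all 7 fell in nickel 400 µM. Cadmium lowered none of them at 0.2 µM, although their changes there ran from -0.61 to -0.29, and lowered 3 each at 0.55 and 1.2 µM. Kif11, the motor that pushes the spindle poles apart, gave the smallest p among the members in nickel. Its controls ran from 7.89 to 8.22 (median 8.03), and the nickel 400 µM arrays read 7.64, 7.53, 7.396 and 7.46, all below them (-0.55 ± 0.06, adjusted p = 1.48e-05). Chromium 10 µM read 8.36, 8.44, 8.13 and 8.52 (0.31 ± 0.11, adjusted p = 0.0376), with 1 array among the controls. Cadmium 1.2 µM read 7.90, 7.66, 7.72 and 7.62 (-0.33 ± 0.09, adjusted p = 0.0129). Nusap1, which bundles spindle microtubules near chromosomes, was among the members that cadmium 1.2 µM lowered most. Its controls ran from 8.54 to 8.94 (median 8.85), cadmium 1.2 µM read 8.62, 8.32, 8.29 and 8.29 (-0.41 ± 0.09, adjusted p = 0.00299), and only replicate 1 reached the control range. Nickel 400 µM read 8.21, 8.26, 8.26 and 8.26, below every control (-0.54 ± 0.08, adjusted p = 2.36e-04), and chromium 10 µM read 9.199, 8.97, 9.195 and 9.19, above every control (0.35 ± 0.08, adjusted p = 0.00381). The remaining members rose in chromium 10 µM by 0.71 (Kif20b), 0.69 (Kifc1), 0.66 (Dlgap5), 0.44 (Hmmr) and 0.43 (Kif2c).

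All 5 tested cytokinesis genes rose in chromium 10 µM, and nickel 400 µM lowered Racgap1 and Ect2 alone. Prc1, which bundles the antiparallel microtubules of the central spindle, ran from 8.45 to 8.79 in the controls (median 8.66) and read 9.15, 8.94, 9.24 and 9.23 in chromium 10 µM, above all of them (0.49 ± 0.08, adjusted p = 2.48e-04). Its nickel 400 µM arrays were spread over 8.80, 8.62, 8.26 and 8.36 (-0.14 ± 0.09, adjusted p = 0.199). In cadmium 1.2 µM it read 8.70, 8.33, 8.32 and 8.24 (-0.26 ± 0.09, adjusted p = 0.0342), with 3 arrays below the controls. Racgap1 and Ect2 activate and place the RhoA signal that builds the contractile ring. Racgap1 rose by 0.76 in chromium 10 µM and fell by 0.34 in nickel 400 µM, and Ect2 rose by 0.38 and fell by 0.56. The midzone motors Kif20a and Kif23 rose by 0.67 and 0.56 in chromium 10 µM and were not called in nickel 400 µM (-0.09 and -0.20). A second tested probe set of Kif23 differed from the leading one, with 0.02 ± 0.20 in chromium 10 µM (adjusted p = 0.949) and a called -0.34 ± 0.13 in nickel 400 µM (adjusted p = 0.0486).

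Of the 5 genes of chromosome separation and the anaphase promoting complex, 3 rose in chromium 10 µM, 3 fell in nickel 400 µM and 2 fell in cadmium 1.2 µM. Cdc20, the activator of the complex, ran from 7.25 to 7.64 in the controls (median 7.50) and read 7.999, 7.83, 7.82 and 7.94 in chromium 10 µM, above all of them (0.40 ± 0.07, adjusted p = 5.59e-04). It read 7.34, 7.47, 7.19 and 7.61 in nickel 400 µM (-0.10 ± 0.09) and 7.35, 7.10, 7.06 and 7.30 in cadmium 1.2 µM (-0.29 ± 0.12, adjusted p = 0.0741). Neither change of Cdc20 was called, although its second tested probe set was called lower in cadmium 1.2 µM (-0.35 ± 0.12, adjusted p = 0.0415). Top2a, the topoisomerase that untangles sister chromatids, ran from 9.13 to 9.72 in the controls (median 9.53). It read 9.14, 9.30, 8.99 and 8.61 in nickel 400 µM (-0.49 ± 0.09, adjusted p = 0.00109), with 2 arrays below the controls. It read 9.65, 9.65, 9.73 and 9.72 in chromium 10 µM (0.18 ± 0.08, adjusted p = 0.0965), near the upper end of the controls. In cadmium Top2a read 9.22, 9.10, 8.99 and 8.52 at 0.2 µM (-0.55 ± 0.08, adjusted p = 0.0144) and 9.48, 9.20, 9.09 and 9.03 at 1.2 µM (-0.30 ± 0.08, adjusted p = 0.0106). Cdca3, an adaptor that helps degrade the mitosis inhibitor WEE1, rose by 0.57 in chromium 10 µM, fell by 0.62 in nickel 400 µM and fell by 0.56 in cadmium 0.2 µM. Ube2c, the ubiquitin-conjugating enzyme of the complex, rose by 0.26 in chromium 10 µM. Pttg1, securin, was called in nickel 400 µM alone (-0.29), and it was the member with an estimate below 0 in chromium 10 µM (-0.06).

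**Figure D4:**
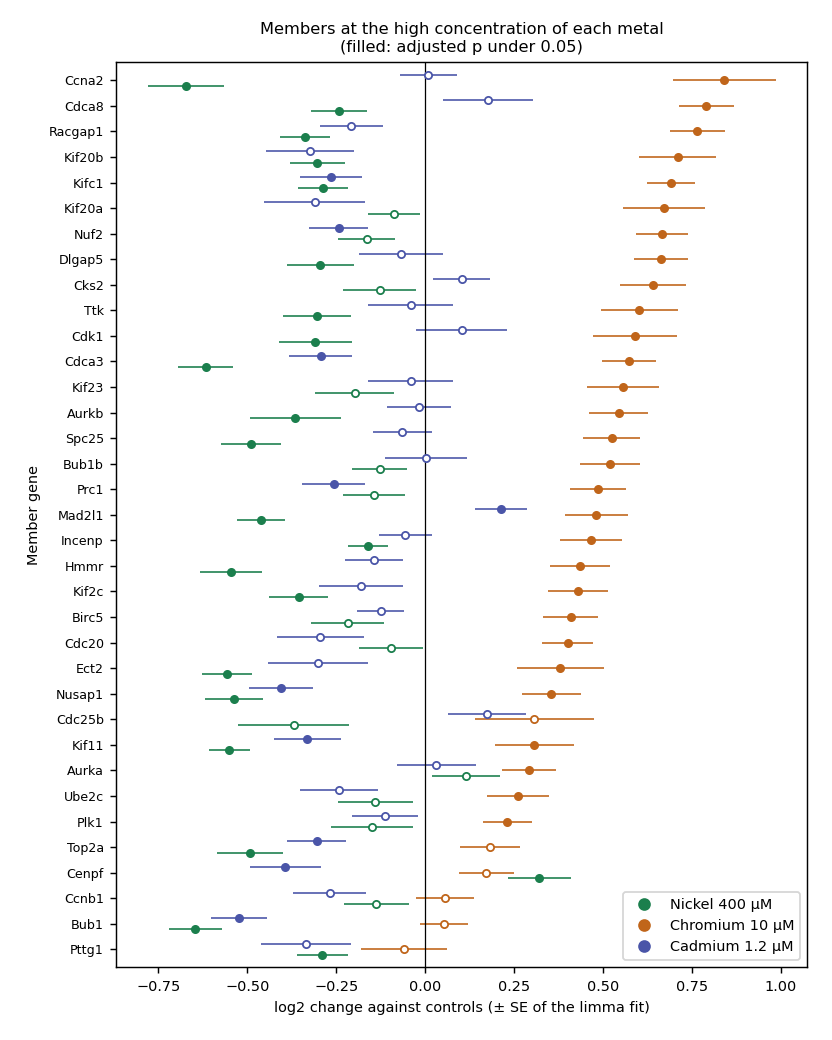
Log2 change ± SE of each tested member against controls at nickel 400 µM, chromium 10 µM and cadmium 1.2 µM, ordered by the chromium change, with filled symbols where the adjusted p was under 0.05. Chromium lies to the right of nickel for every member except Cenpf, and Bub1, Ccnb1, Cenpf, Top2a and Pttg1 stand at the low end of the chromium order.

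The comparisons with controls share the same 8 control arrays, so the metals were also compared with each other between exposed arrays, at high concentrations that differ in µM. Nickel 400 µM lay below chromium 10 µM in 31 of 35 members and above it in none (median difference -0.79), where 21.8% of all probe sets were lower and 23% higher. The 4 that were not called were Ccnb1 (-0.19 ± 0.11), Aurka (-0.18 ± 0.12), Pttg1 (-0.23 ± 0.14) and Cenpf (0.15 ± 0.10). The widest difference was that of Ccna2, -1.51 ± 0.14 (adjusted p = 1.54e-10), followed by Cdca3 with -1.19 ± 0.09 and Racgap1 with -1.10 ± 0.10. In replicates 1 and 2 alone, 30 members were lower in nickel and 1 was higher, without a share of all probe sets beside them. With the titles as deposited none was called, with a median of -0.40 and 33 of 35 estimates below 0.

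Chromium 10 µM lay above cadmium 1.2 µM in 32 of 35 members and below it in none (median 0.59), against 19.2% of all probe sets higher and 24.3% lower. Kif20b (1.03 ± 0.12), Kif20a (0.98 ± 0.14) and Racgap1 (0.97 ± 0.10) differed most. Aurka, Cdc25b and Pttg1 were not called. Nickel 400 µM against cadmium 1.2 µM called fewer members, 9 lower and 1 higher in nickel (median -0.13). Over all probe sets 24.8% were lower and 20.3% higher, so the share of members called lower was near the background and the share called higher was under it. The members lower in nickel included Ccna2 (-0.68 ± 0.14), Mad2l1 (-0.67 ± 0.09), Cdc25b (-0.54 ± 0.16) and Cdk1 (-0.41 ± 0.16), and Cenpf was higher (0.71 ± 0.10, adjusted p = 3.15e-07). With the titles as deposited no member was called in either comparison.

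Between the middle and the high concentration, nickel lowered 18 members and raised none (9.43% of all probe sets lower, 12.3% higher), with Hmmr (-0.62), Ect2 (-0.52) and Nusap1 (-0.51) foremost. Hmmr encodes a hyaluronan receptor that also binds spindle microtubules. Chromium raised 20 and lowered none (20% higher, 17.8% lower), and Ccna2 rose furthest, by 0.80. Cadmium raised 5 and lowered none (11.5% higher, 12.3% lower): Ccna2 (0.57), Cdc25b (0.45), Mad2l1 (0.39), Cks2 (0.35) and Birc5 (0.20). The share of members raised in cadmium was thus near that of all probe sets, and the count is not particular to the members. Cyclin A2, Mad2l1, Cks2 and Birc5 had been below their controls at 0.2 µM, so in cadmium they moved back toward or past the control level as the concentration rose. None of these calls remained under the titles as deposited, where the median from middle to high was -0.26 in nickel, 0.25 in cadmium and -0.05 in chromium, where 21 of 35 estimates changed sign.

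Other genes of the division cycle were read from lists kept apart from the members. Beside their counts, 23% of all probe sets were called higher and 19.5% lower in chromium 10 µM. In nickel 400 µM these shares were 23.4% and 16.7%, and in cadmium 1.2 µM 23.8% and 14%. None of the calls in these lists remained under the titles as deposited, where the median in chromium 10 µM was 0.19 for other mitotic genes, 0.38 for G1/S and replication genes, 0.15 for transcription factors and 0.12 for inhibitors. Of 36 other tested mitotic genes, 35 rose in chromium 10 µM (median 0.64) and 27 fell and 2 rose in nickel 400 µM (median -0.37). Plk4, the kinase of centriole duplication, rose furthest in chromium (0.98), and Spc24, the partner of Spc25, fell furthest in nickel (-1.05). Of the same 36 genes, cadmium lowered 6 at 0.2 µM (median -0.37) and 10 at 0.55 µM (median -0.19), beside 0.316% and 2.3% of all probe sets. At 1.2 µM it lowered 6 and raised 4 (median -0.05), which was near the share of all probe sets called lower and under that called higher. Cenpk and Zwint, both kinetochore proteins, were higher in nickel 400 µM (0.42 and 0.35) and in cadmium 1.2 µM (0.76 and 0.87). Mki67, the proliferation marker Ki-67, changed by 0.56 ± 0.11 in chromium 10 µM, -0.42 ± 0.09 in nickel 400 µM and -0.61, -0.55 and -0.35 at rising cadmium, and each of these 5 changes was called.

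Genes of G1/S and DNA replication, which act before mitosis, rose in 25 of 28 cases in chromium 10 µM, with a median of 0.91 beside 0.48 for the members. The list included Pcna, Rpa2, Lig1, Pole, Pole2, Pold1, Pold2 and Mcm genes, which the authors had reported as raised by chromium on these same arrays. Its chromium count and median are therefore partly fixed by that choice and are a description alone. Cdt1, which licenses origins, rose by 1.89, Ccne2 (cyclin E2) by 1.49 ± 0.12 and Pcna, the sliding clamp, by 1.28 ± 0.11. In nickel 400 µM 16 fell and 1 rose (median -0.31), with Tyms, thymidylate synthase, lowest at -0.95. In cadmium 1.2 µM 12 rose and 1 fell (median 0.18), among them Ccne2 (0.64) and Pcna (0.31), while 9 of the 35 members were lower. Cadmium 0.2 µM lowered 1 of the 28 (Mcm5, -0.43). Their promoter windows held a CHR match in 15.4% and a CCAAT match in 65.4% of 26 genes, beside 92.1% and 78.9% for the members. The high CHR share was not particular to the members. It was 66.7% of 39 other mitotic genes and 50% of 14 transcription factors of the cycle, with CCAAT shares of 59% and 35.7%.

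Of 18 tested transcription factors of the cycle, chromium 10 µM raised 11 and lowered 1, Rbl2 (-0.84), the p130 pocket protein of the DREAM complex. Mybl2 rose by 1.29 ± 0.13, E2f1 by 0.59 ± 0.11 and Foxm1 by 0.50 ± 0.09. Nickel 400 µM lowered 6, among them E2f1 (-0.38 ± 0.11), Foxm1 (-0.35 ± 0.09) and Rbl2 (-0.54), and raised 2, Nfyb (0.47) and Nfya (0.32), subunits of the factor that binds CCAAT boxes. In cadmium Foxm1 was not called at any concentration (-0.35, -0.28 and -0.05 at rising concentration), and E2f1 was lower at 0.55 µM (-0.38). Cadmium 1.2 µM lowered Rbl2 (-0.17) and raised Lin37, Mybl2 and Rb1 by 0.21, 0.25 and 0.26. Both cadmium 1.2 µM counts were below the shares of all probe sets, as were the 1 lowered in chromium and the 2 raised in nickel.

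Some inhibitors of the cycle and growth arrest genes were called with each of the 3 metals. Chromium 10 µM raised 7 of 12 and lowered 2, with Wee1, the kinase that restrains Cdk1, highest at 0.98 and Ccng2, a cyclin of arrested cells, lowest at -0.58. Cdkn1a (p21) rose by 0.53 ± 0.16 in chromium 10 µM and 0.43 ± 0.14 in cadmium 1.2 µM, and its change of -0.26 ± 0.20 in nickel 400 µM was not called. Nickel 400 µM raised 5, with Gadd45b highest (0.76), and lowered Cdkn2c (-0.75), which encodes p18. Cadmium 1.2 µM raised 6 and lowered 3, with Gadd45a, a stress gene that can restrain Cdk1, highest at 2.46. The share of this list called higher exceeded that of all probe sets with each metal, without a test. The share called lower was under that of all probe sets in chromium 10 µM and nickel 400 µM.

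**Figure D5:**
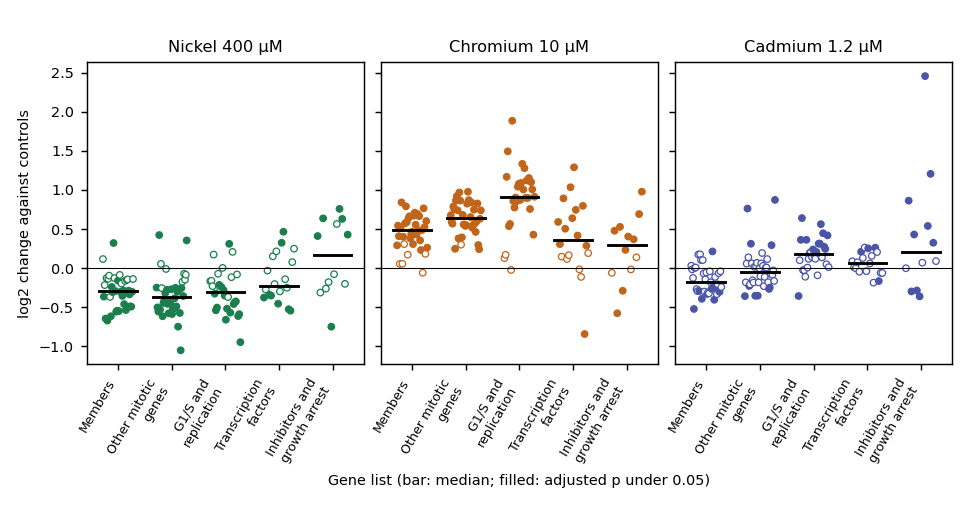
Log2 change against controls of each tested gene in the members and in 4 other lists at the 3 high concentrations, filled where the adjusted p was under 0.05, with a bar at the median. In chromium 10 µM the median is 0.48 for the members, 0.91 for G1/S and replication genes and 0.30 for inhibitors, the lowest of the 5 lists, and in cadmium 1.2 µM it is -0.18 for the members and 0.18 for G1/S and replication genes.

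Other probe sets of the members mostly moved the same way as the leading ones. Of 12 further member probe sets that passed the filter, 12 had the same sign as the leading probe set in chromium 10 µM, 11 in nickel 400 µM and 10 in cadmium 1.2 µM. The exceptions were those of Incenp in nickel and cadmium and of Hmmr in cadmium (0.01 against -0.14, neither called). In cadmium 1.2 µM the second Incenp probe set was called higher (0.27, adjusted p = 0.0478) while the leading one changed by -0.06 and was not called. The same sign did not always mean the same call, as for Kif23 and Cdc20. The probe set shared by Anln and Anlnl1 changed by 0.36 in chromium 10 µM and was called, and the one shared by Ckap2 and a pseudogene changed by 1.16 and was called. Neither was called in nickel 400 µM or cadmium 1.2 µM.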

How the data were processed

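RNA of H4-II-E-C3 cells was hybridised to 44 Affymetrix rat expression arrays. The deposited values are log2 intensities, which the authors made from the scans by RMA in Partek Genomics Suite. The number of arrays limits the precision. The authors filtered on detection calls, which were not used here; instead, the 15521 of 31042 probe sets with the higher means over all arrays were tested. Genes were named through the platform annotation, and a probe set that names several genes stood for none.

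The titles were matched to the value columns in series order after moving the 4 titles of repeated arrays to the end. With that order, the condition means of 992 probe sets differed from the 8928 condition values tabulated by the study by a median of 2.95e-06 and at most 7.5e-06. With the titles as deposited the median was 0.164 and the largest difference 4.32. The titles as deposited were an alternative throughout.

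Each metal was fitted with the controls in limma 3.58.1 (R 4.3.3), with terms for concentration and replicate, and the 2 control arrays of a replicate averaged. Metals were compared in 1 fit over all groups. P-values were adjusted by Benjamini-Hochberg over all probe sets tested, and a call is an adjusted p under 0.05. The stricter rule was an FDR of at most 0.001 with a change of at least 1.8-fold. Errors are standard errors of the fit. The labels name biological replicates, but nothing says that the 2 control arrays of a replicate were separate cultures. The methods' batches cover different dates of experiment and of processing, and the block used here is the replicate number alone. Replicate numbers paired the samples: exposed arrays deviated together with the controls of their number in 36 of 36 cases (lowest r 0.221, median 0.599). These cases share the averaged controls of each replicate. Over all pairs from different conditions, r exceeded 0.1 in 169 of 180 with the same number (lowest -0.305). It did so in 167 of 540 with different numbers (highest 0.702).

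Array values are given for members chosen by role and for the 2 called members with the largest change in each direction at each high concentration. Of the other lists, 7 genes were named for their roles and otherwise the largest called changes are given, together with Cenpk, Zwint, Nfya, Lin37 and Mcm5, which were chosen after their values were seen. The members and lists were chosen with earlier results of these data known. The scripts were tested on simulated data. Alternatives covered the probe sets tested, the block, the controls, the order of titles, repeated arrays, each replicate left out, 1 fit, centring, the threshold and the mean of a gene's probe sets. Sequences came from the RefSeq promoter table (GRCr8, 33469 windows of 300 bases), searched with Python 3.11.15.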

Additional observations from a re-analysis of the deposited data

Results flagged for a closer look

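Among 169 sets of arrays of a condition screened for 1 array far from the others, 6 were picked out, and chance picks about 1 in 20. The value given is the gap to the nearest array as a share of the range. Nusap1 was picked out at all 3 high concentrations, with replicate 1 below in nickel 400 µM (8.21 against 8.26, 8.26 and 8.26, share 0.9), replicate 2 below in chromium 10 µM (8.97 against 9.199, 9.195 and 9.19, share 0.969) and replicate 1 above in cadmium 1.2 µM (8.62 against 8.32, 8.29 and 8.29, share 0.916). The nickel gap is small on the log2 scale and stands out because the other 3 arrays lay close together. Bub1b in cadmium 1.2 µM read 7.16 in replicate 1 against 6.68, 6.66 and 6.67 (share 0.958). The remaining sets held a repeated array at the far end. Cdc20 in cadmium 0.55 µM read 7.76 on the repeated array of replicate 2 against 7.11 to 7.19 on the others (share 0.882), and Top2a in nickel 140 µM read 8.87 on the repeated array of replicate 4 against 9.42 to 9.48 (share 0.902). The causes were not tested.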

How the results depend on the processing

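With the titles as deposited, 0 members were called in every exposure and in every comparison between metals, and 8 of 35 estimates changed sign in chromium 10 µM and 16 in cadmium 1.2 µM. Among members called there, these were Plk1 (-0.0942), Birc5 (-0.0901), Nusap1 (-0.0624) and Ube2c (-0.0407) in chromium 10 µM and for Kif11 (0.0494) and Prc1 (0.0302) in cadmium 1.2 µM. The sign also changed for 1 member called between nickel and chromium and for 5 called between chromium and cadmium. By the stricter rule 0 of the 35 tested members were called. Without the replicate block, nickel 400 µM lowered 17 and raised 0, chromium 10 µM raised 28, and cadmium lowered 0, 0 and 2 at rising concentration and raised 0 at 1.2 µM. With the block left out, the metals differed in 31 members for nickel against chromium, 31 for chromium against cadmium and 9 lower for nickel against cadmium. With 8 separate control arrays cadmium lowered 29, 26 and 17, nickel 140 µM raised 1 and lowered 2, and chromium 1 µM raised 1. Leaving out the repeated arrays gave 29, 26 and 17 for cadmium. Control 2 arrays alone gave 6, and the mean of a gene's probe sets gave 16, at cadmium 0.2 µM, and that mean raised 1 in nickel 140 µM. One fit over all exposures raised 1 in nickel 140 µM and 0 in cadmium 1.2 µM. With arrays centred, cadmium lowered 19 at 0.55 µM and 19 at 1.2 µM and raised 0 there, as it did with all probe sets tested. In replicates 1 and 2 alone, 1 member was higher in nickel than in chromium. Shares of all probe sets called are not given for any alternative in this section, so its counts lack a background.

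Leaving out 1 replicate at a time, the members lowered numbered 15 to 19 in nickel 400 µM, 0 to 22, 1 to 22 and 2 to 12 at rising cadmium, and those raised 0 to 1 in nickel 400 µM, 25 to 28 in chromium 10 µM and 0 to 1 in cadmium 1.2 µM. Of the 29 members called in chromium 10 µM, 24 to 29 were called again under each alternative other than the titles as deposited and the stricter rule. The causes were not tested.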
